A study of Mus musculus with 6 samples.

Results

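Bilirubin-treated brain cells labelled TRPM2 Mg KO were compared with bilirubin-treated wild-type (WT) brain cells. All single-cell libraries carrying these labels were taken, 2 per group, which gave 4 of the 6 samples of the series and 49835 of its 94144 kept cells. Both groups received bilirubin, so the genotype is what the labels set apart. The remaining 2 samples were WT with vehicle and serve below as a background level. A kept cell had at least 500 unique molecular identifiers (UMIs, each standing for 1 captured RNA molecule), at least 300 genes and at most 15% of its UMIs from mitochondrially encoded genes. The UMIs of all kept cells of a sample were summed into 1 profile. The sources used here do not give what Mg stands for, the bilirubin dose or time, the brain region, the age, or the promoter or cell type that drives the knockout. The labels do not tie the replicates to separate animals; a p-value therefore measures only the spread between these samples, and that spread may be technical.

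TRPM2 is a calcium-permeable cation channel that opens on ADP-ribose and responds to oxidative stress, and it is known in microglia and neutrophils. Bilirubin is the breakdown product of haem, which the liver conjugates and excretes, and unconjugated bilirubin can enter the brain. C/EBP-beta, encoded by Cebpb, is a transcription factor of myeloid cells that takes part in the expression of acute-phase and inflammatory genes, and Lcn2 and S100a9 are among the genes of such responses.

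The 4 bilirubin samples held 20834 and 8593 kept cells (WT replicates 1 and 2) and 16274 and 4134 (knockout replicates 1 and 2), with 24163398 to 61115921 UMIs. Mitochondrially encoded genes took 4.76% and 0.779% of the UMIs in WT and 3.71% and 3.98% in the knockout, so WT replicate 2 stood apart. Cells were assigned to a marker class when they held UMIs of at least 3 markers of a list and a larger share of it than of any other list. Microglia-marker cells made up 37.6% and 23.1% of the WT cells and 41.6% and 41.8% of the knockout cells. Endothelial-marker cells made up 7.32% and 1.73% in WT against 10.1% and 12.5% in the knockout. T-cell-marker cells made up 0.874% and 4.29% against 0.387% and 0.460%, and neutrophil-marker cells 0.307% and 0.884% against 0.129% and 0.097%. Between 1.85% and 2.76% of the kept cells of a sample had a barcode that another sample also held. In such summed samples, fewer cells of a type and less RNA per cell cannot be told apart.

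UMIs of Trpm2, the targeted gene per the label, were present in all samples. Its level was 5.33 and 7.67 CPM (counts scaled to a common library total, with TMM factors for all summed samples) in WT bilirubin, 6.29 and 5.36 in the knockout, and 10.2 and 6.88 in WT vehicle. The groups overlapped, and the log2 fold change of knockout over WT was -0.15 (SE 0.33, edgeR quasi-likelihood adjusted p = 1.0). Within microglia-marker cells it was 11.2 and 28.8 CPM in WT and 11.8 and 5.67 in the knockout, and the fit on these cells alone gave -0.95 (SE 0.43, unadjusted p = 0.0497, adjusted p = 1.0). Which part of the gene was deleted, and in which cells, is not given, so a 3' count of its RNA does not check the label. All 4 tested Y-linked genes were counted in all 6 samples and Xist had 1 to 4 UMIs per sample.

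Among 19497 genes tested, 1 passed an adjusted p of 0.05 in edgeR (0.00513% of the genes), and it was lower in the knockout (0.00513%), while 0.0% were higher. At an unadjusted p under 0.05 there were 685 genes, of which 265 were lower (1.36%) and the others higher (2.15%). Both knockout samples lay below both WT samples for 12.1% of the genes and above both for 14.5%. Power was limited: on simulated data for this comparison, 62% of 100 genes changed 4-fold were found, and 6% of 100 genes changed 2-fold, with 19188 genes in the step. DESeq2 on the same genes called 12 (0.0615%), of which 9 were lower. The median log2 fold change over all tested genes was 0.02.

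The called gene was Igha (ENSMUSG00000095079), the constant region of the IgA heavy chain, which plasma cells secrete. It was at 24.6 and 11.3 CPM in WT bilirubin, at 0.324 and 0.434 in the knockout, and at 0.0949 and 0.118 in WT vehicle. Both WT bilirubin samples were far above the other 4. The log2 fold change was -5.60 (SE 0.50, edgeR adjusted p = 0.0191). These molecules sat in very few cells: in WT replicate 1, 1397 of the 1441 Igha UMIs were in 1 cell, and in WT replicate 2, 280 of 298 were in 3 cells. In the knockout, 16 UMIs lay in 16 cells and 9 UMIs in 8 cells. Jchain, which joins IgA into dimers, followed the same few cells, with 556 of 577 UMIs in 1 cell of WT replicate 1 and 86 of 108 in 1 cell of replicate 2. For Igkc, the kappa light chain constant region, the richest cell held 7984 of 9414 UMIs and 636 of 1298. When cells with at least 10% of their UMIs from immunoglobulin genes were left out (1 cell in each WT bilirubin sample and 0 in each knockout sample), Igha had a log2 fold change of -2.45 with an edgeR adjusted p of 1.0, and no gene passed (681 had an unadjusted p under 0.05). Such cells were not confined to WT bilirubin: WT vehicle replicates 1 and 2 had 2 and 0 of them.

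**Figure D1:**
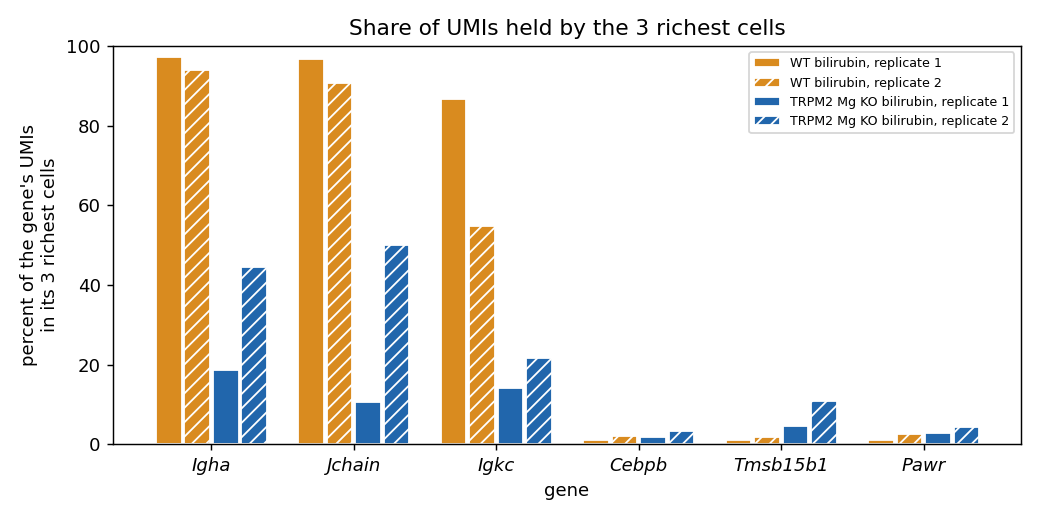
Percent of a gene's UMIs in its 3 richest cells (vertical axis), for 6 genes (horizontal axis) in the 2 WT bilirubin (orange) and 2 knockout (blue) samples, with replicate 2 hatched. In WT bilirubin 97.2% and 94.0% of the Igha UMIs were in 3 cells, against 1.02% and 2.17% for Cebpb.

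Cebpb and Tmsb15b1 came next by p and, unlike Igha, were spread over 431 to 3793 WT cells. Neither passed in the edgeR fit of all 6 samples with its filter on low counts. DESeq2 on the same genes called both (Cebpb adjusted p = 9.12e-10, Tmsb15b1 adjusted p = 8.38e-09), as did edgeR without that filter. Cebpb (ENSMUSG00000056501) was at 98.6 and 73.4 CPM in WT bilirubin (mean 86.0 ± 17.8 SD, n = 2), at 13.7 and 15.8 in the knockout (14.7 ± 1.49 SD, n = 2), and at 42.8 and 40.5 in WT vehicle. Knockout levels were thus the lowest of the 3 groups and did not overlap either. The log2 fold change was -2.55 (SE 0.33, edgeR adjusted p = 0.134). It was counted in 3793 and 1156 WT cells (18.2% and 13.5%), and in 602 and 293 knockout cells (3.70% and 7.09%). The 3 richest cells held at most 3.36% of its UMIs in any of the 4 samples.

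Tmsb15b1 (ENSMUSG00000089768) belongs to the beta-thymosins, small proteins that bind actin monomers. It was at 13.1 and 18.6 CPM in WT bilirubin, at 2.63 and 1.79 in the knockout, and at a mean of 13.9 ± 1.32 (SD, n = 2) in WT vehicle. Both knockout samples lay below the other 4, with a log2 fold change of -2.82 (SE 0.34, edgeR adjusted p = 0.122). Its neighbour in sequence, Tmsb15b2, shares 96.7% of the last 300 bases of the annotated transcripts, so the counting could have split reads between them and both values are uncertain. Tmsb15b2 had 1119 and 699 UMIs in WT bilirubin and 341 and 373 in the knockout, with a log2 fold change of -0.88 (SE 0.45, edgeR adjusted p = 1.0).

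Read within marker classes, where CPM are relative to the UMIs of the class and carry no TMM factor, Cebpb was lower in both knockout samples than in both WT bilirubin samples in each of the 7 classes plotted, cells without a class included. In microglia-marker cells it was at 177 and 214 CPM in WT and 24.7 and 16.1 in the knockout. Choroid plexus-marker cells had 39.2 and 27.7 against 5.66 and 7.52, and endothelial-marker cells 81.4 and 41.7 against 13.6 and 12.8. Neutrophil-marker cells had 1102 and 670 against 245 and 142, but the knockout values rest on 19 and 3 UMIs in 21 and 4 such cells. Choroid plexus-marker cells fitted alone gave 4 called genes, all lower in the knockout: Cebpb (-2.45, edgeR adjusted p = 0.0145), Tmsb15b1 (-2.92, edgeR adjusted p = 0.0145), Gpx3 and Bex4. In microglia-marker cells alone no gene passed (434 at an unadjusted p under 0.05), with Cebpb at -3.05 (edgeR adjusted p = 0.13). Free RNA in droplets was not removed, and its part in these values was not tested.

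**Figure D2:**
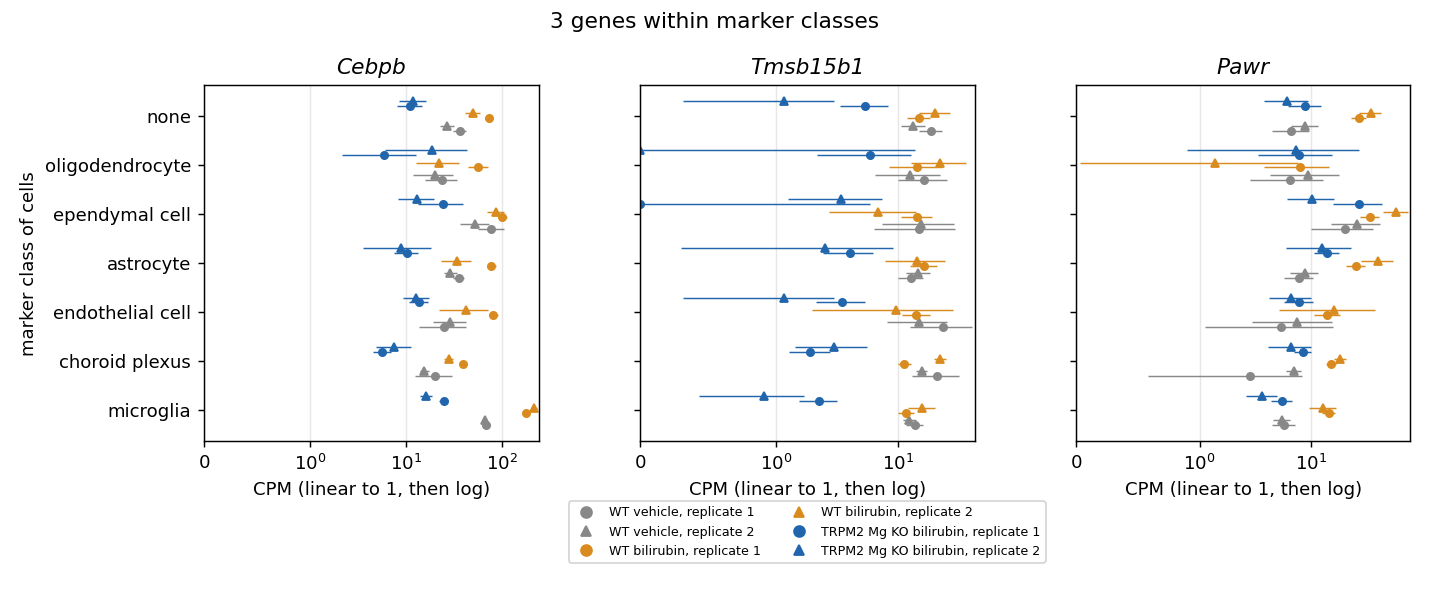
Level of Cebpb, Tmsb15b1 and Pawr (horizontal axis, CPM of the class, linear to 1 and then log) in marker classes of cells (vertical axis) for the 6 samples, with exact 95% Poisson intervals that cover counting error only. In microglia-marker cells the knockout samples sit at 24.7 and 16.1 CPM for Cebpb, below the WT bilirubin samples at 177 and 214.

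Of 7 C/EBP genes tested, Cebpb was the 1 with an unadjusted p under 0.05, and the list median was 0.04. Cebpe, a factor of granulocyte maturation, was also lower without overlap (-1.62, SE 0.94, edgeR adjusted p = 1.0). It was at 0.307 and 0.570 CPM in WT and 0.101 and 0.193 in the knockout. This rests on 18 and 15 UMIs in WT and 5 and 4 in the knockout. In WT the 3 richest cells held 9 and 8 of these UMIs. Of all genes tested, 12.1% lay below without overlap. The other 5 C/EBP genes overlapped between the groups, among them Cebpd at a log2 fold change of 0.61 and Cebpa at 0.26. Lcn2, an iron-siderophore-binding protein of neutrophils and inflamed endothelium, was at 82.3 and 98.4 CPM in WT bilirubin and at 19.7 and 72.3 in the knockout (-0.98, SE 0.63, edgeR adjusted p = 1.0). Lrg1 and Scgb3a1 overlapped between the groups in the summed samples. Within endothelial-marker cells Scgb3a1, a small secreted secretoglobin, was at 307 and 796 CPM in WT and 37.9 and 41.0 in the knockout, and at 16.1 and 9.55 in WT vehicle. It was the 1 gene called in the fit of these cells alone, where it fell by 3.50 on the log2 scale (SE 0.49, edgeR adjusted p = 0.0037). WT replicate 2 had only 149 such cells, and 3 cells held 81 of the 319 Scgb3a1 UMIs of that sample. In the summed samples Scgb3a1 was higher in knockout replicate 2 (30.6 CPM) than in WT replicate 2 (12.1). S100a8, a subunit of calprotectin, was at 242 and 1110 CPM in WT and 71.2 and 248 in the knockout, so that the higher knockout sample reached the lower WT sample.

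Promoter sequence is shown for 4 of these genes, from RefSeq on GRCm38.p6. Cebpb and Tmsb15b1 were lower across classes, and Lcn2 and S100a9 were picked because they hold the C/EBP core. The core searched was TTGCNNAA on both strands, in windows of 250 bases before to 50 after the start. Among all 32851 promoters, 10.8% held it, as did 6 of the 28 promoters of the leading or followed genes. Those 28 belong to 24 genes, of which 6 held it. The 250 bases before the start are printed 5′ to 3′ on the gene's strand, with the core in capitals.
Cebpb, chr2:167688665-167688914, plus strand: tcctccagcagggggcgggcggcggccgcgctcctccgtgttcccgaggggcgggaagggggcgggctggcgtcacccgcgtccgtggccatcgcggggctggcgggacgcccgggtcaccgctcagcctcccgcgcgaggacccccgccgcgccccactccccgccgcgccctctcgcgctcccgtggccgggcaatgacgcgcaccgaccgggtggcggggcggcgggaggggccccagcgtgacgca
Tmsb15b1, chrX:136976875-136977124, minus strand: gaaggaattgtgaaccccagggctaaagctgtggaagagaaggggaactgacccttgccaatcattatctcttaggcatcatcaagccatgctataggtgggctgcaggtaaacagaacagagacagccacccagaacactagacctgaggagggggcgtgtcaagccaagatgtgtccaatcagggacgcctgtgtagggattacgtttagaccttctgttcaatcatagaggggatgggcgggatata
Lcn2, chr2:32387740-32387989, minus strand: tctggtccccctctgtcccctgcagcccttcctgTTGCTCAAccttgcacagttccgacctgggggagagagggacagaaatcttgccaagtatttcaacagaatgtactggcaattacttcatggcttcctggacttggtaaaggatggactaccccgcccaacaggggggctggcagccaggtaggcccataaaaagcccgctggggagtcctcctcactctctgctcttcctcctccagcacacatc
S100a9, chr3:90695722-90695971, minus strand: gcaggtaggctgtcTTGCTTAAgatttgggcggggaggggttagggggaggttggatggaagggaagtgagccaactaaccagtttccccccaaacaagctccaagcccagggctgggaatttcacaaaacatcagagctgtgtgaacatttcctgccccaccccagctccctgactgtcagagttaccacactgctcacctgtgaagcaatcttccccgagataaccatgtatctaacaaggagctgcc
The core began 216 bases before the start of Lcn2 and 236 before that of S100a9. Of the genes with a match, Dio2, Cav2 and Tmtc2 were higher in the knockout, and Clec4e, Lcn2 and S100a9 were lower. None of them passed in the edgeR fit of all 6 samples. The windows of Lrg1, Scgb3a1 and S100a8 held no match. A match is a description of letters and not a binding site, and no match in the Cebpb and Tmsb15b1 windows says only that these letters are not there.

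Against each WT sample alone, few genes held. Among 11937 genes with a mean of at least 5 CPM, 7 were at least 2-fold lower in both knockout samples than in either WT sample (0.0586%), and 11 were at least 2-fold higher (0.0922%). Against WT replicate 1 alone, 13 genes were 2-fold lower and 19 higher in both knockout samples. Against WT replicate 2 alone, the counts were 92 and 540. The 7 lower genes were Igha, Tmsb15b1, Cebpb, Igkc, Pawr, Ifitm6 and Cd3e, with their smallest folds between knockout and WT samples at 26.1, 4.99, 4.65, 2.53, 2.31, 2.22 and 2.11. The named higher genes included Dio2, Kdr, Hmcn1, Cxcl12 and Slc7a1, with smallest folds of 2.61, 2.40, 2.19, 2.20 and 2.02. The same dependence appeared in the fits: with WT replicate 1 left out, edgeR called 24 genes (7 lower, 17 higher), and with WT replicate 2 left out it called 1, Igha.

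**Figure D3:**
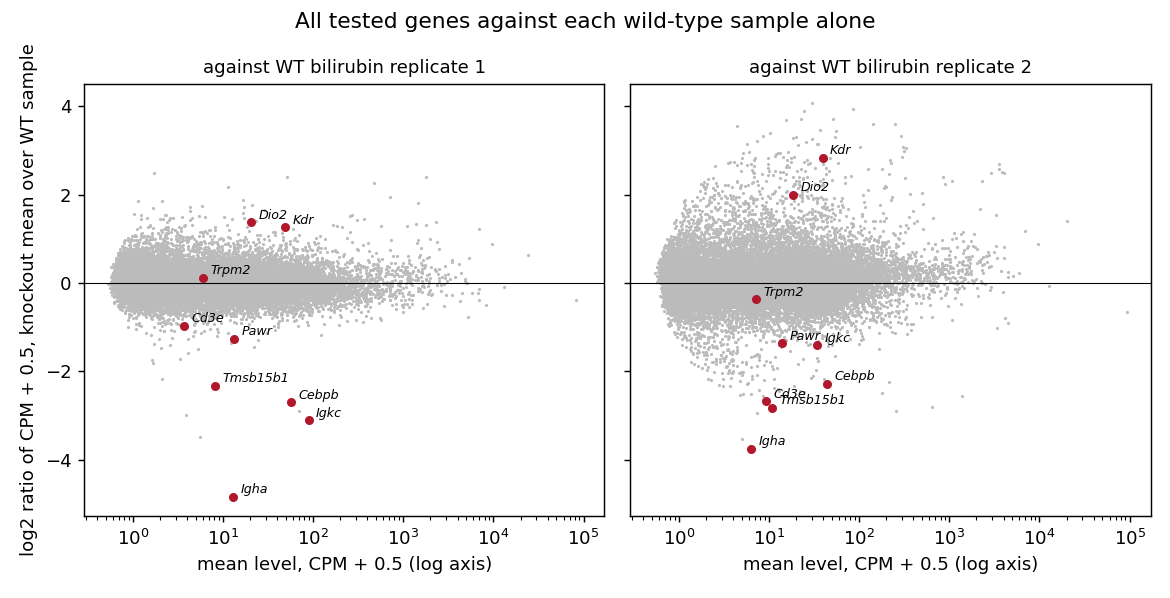
Log2 ratio of the knockout mean over 1 WT bilirubin sample (vertical axis, CPM + 0.5) against mean level (horizontal axis, log) for 19497 genes, with WT replicate 1 on the left and replicate 2 on the right and named genes in red. Igha, Cebpb and Tmsb15b1 lie low in both panels, and the cloud is wider on the right, where 540 genes against 19 were at least 2-fold higher in both knockout samples.

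Pawr, which encodes the pro-apoptotic protein Par-4, was at 18.4 and 19.7 CPM in WT bilirubin, 7.95 and 6.76 in the knockout, and 5.51 and 7.46 in WT vehicle. The log2 fold change was -1.37 (SE 0.29, edgeR adjusted p = 1.0). The knockout samples lay near the vehicle samples and below both WT bilirubin samples. Dio2, the deiodinase that activates thyroid hormone, had the opposite order, at 10.9 and 6.95 CPM in WT bilirubin, 28.5 and 29.7 in the knockout, and 64.9 and 33.7 in WT vehicle (1.70, SE 0.39, edgeR adjusted p = 1.0). Gpx3, a secreted glutathione peroxidase, was at 11.3 and 11.4 CPM in WT bilirubin and 3.32 and 5.94 in the knockout. None of these 3 genes passed in the edgeR fit of the summed samples; without its filter on low counts Pawr and Dio2 did (adjusted p = 0.028 and 0.00473).

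**Figure D4:**
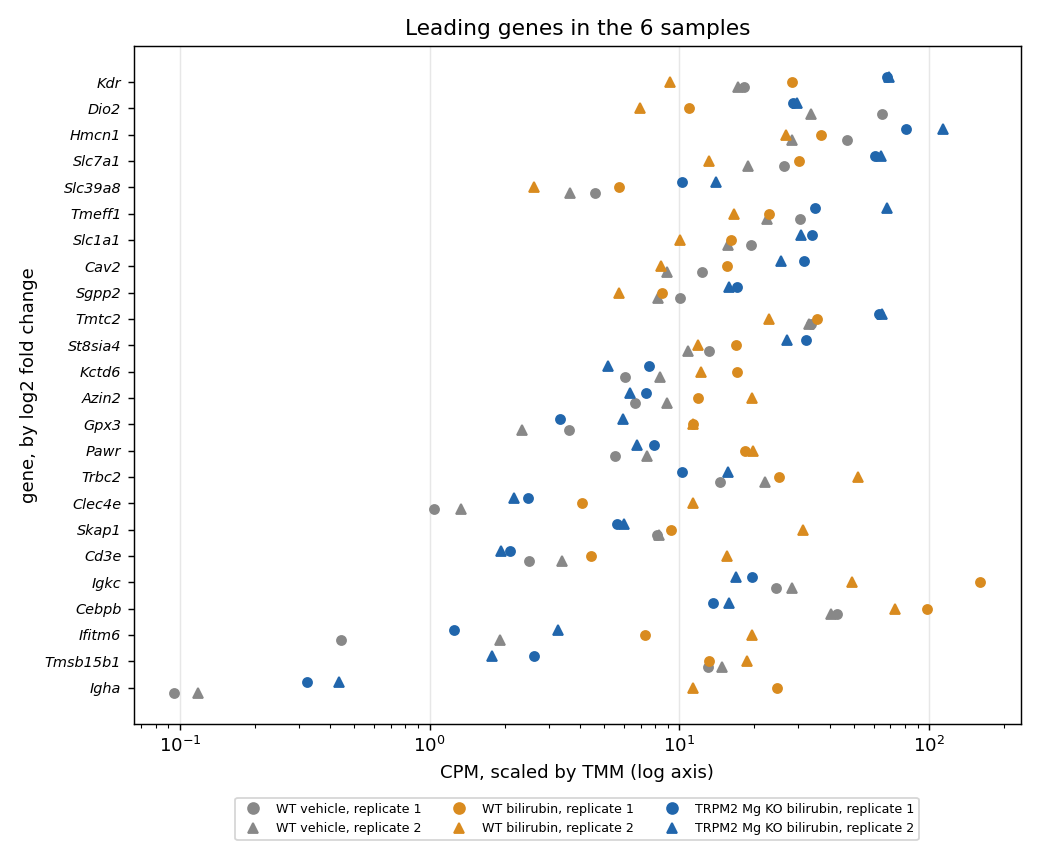
Level of the 24 leading genes (vertical axis, by log2 fold change) in each of the 6 samples (horizontal axis, CPM on a log axis), with circles for replicate 1 and triangles for replicate 2. Blue knockout points lie on 1 side of both orange WT bilirubin points for every gene, which the rule required, and only Igha passed in the edgeR fit of all 6 samples, from 24.6 and 11.3 CPM in WT to 0.324 and 0.434.

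Neutrophil, T cell, NK cell and cytotoxic lists had lower medians in the knockout, with no member called in the edgeR fit of all 6 samples. Other leukocyte lists differed less. B cell markers had a median of -0.49, with 6 of 7 below 0 and 0 of 7 at an unadjusted p under 0.05. Their summed levels were 45.9 and 32.5 CPM in WT and 38.0 and 39.7 in the knockout. Monocyte or dendritic cell markers had a median of -0.58, with 6 of 7 below 0 and 1 of 7 lower at that p. Their summed levels overlapped (14.1 and 43.9 against 13.2 and 18.7), and border macrophage markers had a median of 0.18. Of 12 neutrophil markers, 8 had an unadjusted p under 0.05 and a lower level, against 1.36% of all genes tested. The markers had a median log2 fold change of -1.96 against 0.02 over all genes. Their summed level was 1248 and 4531 CPM in WT and 454 and 1061 in the knockout. Retnlg, a resistin-like protein of neutrophils, was at 115 and 447 CPM in WT and 55.5 and 63.1 in the knockout. Without neutrophil-marker cells, which were picked by these same markers, the list median was -0.58, and without WT replicate 2 it was -0.63.

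Of 10 T cell markers 9 had an unadjusted p under 0.05, all lower (median -1.56), and DESeq2 called 1 of them, Cd3e (adjusted p = 0.0368). Over all genes tested, 1.36% were lower at that unadjusted p. The summed level of the T cell markers was 89.9 and 229 CPM in WT against 41.3 and 63.7 in the knockout. Cd3e, a chain of the T cell receptor complex, was at 4.43 and 15.6 CPM in WT and 2.10 and 1.93 in the knockout. Of 12 cytotoxic effector genes 10 were lower at that p, among them Gzmk (3.32 and 5.96 against 1.15 and 1.06 CPM), and Tnfsf10, which encodes TRAIL, was higher (6.78 and 3.61 against 10.4 and 13.3). Without WT replicate 2 the T cell median was -0.80. The share of T-cell-marker cells, given above, was also lower, but these cells are counted by UMIs of the same T cell markers. It is therefore not a separate observation, and its part in the result was not tested.

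Endothelial markers were higher. Of 10, 8 had an unadjusted p under 0.05, all higher, against 2.15% of all genes tested higher at that p. The list median was 1.37, and the summed level was 1232 and 256 CPM in WT and 1675 and 2300 in the knockout. WT replicate 1 thus lay much nearer to the knockout samples than WT replicate 2 did. Kdr, the VEGF receptor 2, was at 28.2 and 9.19 CPM in WT and 67.8 and 68.9 in the knockout (1.86, SE 0.47, edgeR adjusted p = 1.0). Against WT replicate 1 its log2 ratios (CPM + 0.5) were 1.25 and 1.27, and against WT replicate 2 they were 2.82 and 2.84. Inside endothelial-marker cells the list median was -0.43, and Kdr was at 221 and 363 CPM in WT against 374 and 155. These cells were picked by UMIs of the same markers, so these values cannot decide whether the direction held there. The share of endothelial-marker cells moved with the list in the summed samples, but it is counted from the same markers and is not a separate observation.

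Interferon-response genes had 7 of 22 at an unadjusted p under 0.05, all higher, with 21 of 22 above 0 and a median of 0.62. Their summed level overlapped between the groups, at 952 and 626 CPM in WT and 924 and 1458 in the knockout. Over all genes tested, 2.15% were higher at that p and the median was 0.02. As given above, 540 genes were at least 2-fold higher against WT replicate 2 alone and 19 against replicate 1 alone. Gbp3, a guanylate-binding GTPase, was at 4.63 and 2.51 CPM in WT and 8.19 and 8.40 in the knockout, and Rsad2, the antiviral enzyme viperin, at 4.57 and 2.73 against 8.56 and 5.70. In microglia-marker cells alone the list median was 0.26. All 14 homeostatic microglia genes were above 0 (median 0.53) and none had an unadjusted p under 0.05, with P2ry12, a purinergic receptor of microglia, at 155 and 112 CPM in WT and 266 and 199 in the knockout. P2ry12 is also a marker by which microglia-marker cells were picked, so their higher share, given above, is not a separate observation. The part of that share in the result was not tested. Neuropeptide genes were above 0 in 20 of 20, 5 of them at an unadjusted p under 0.05 (median 0.86), with Oxt at 1.62 and 1.63 CPM in WT and 3.18 and 5.36 in the knockout. Their summed level was 162 and 72.0 CPM in WT and 176 and 194 in the knockout, so WT replicate 1 lay near the knockout samples.

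The list of TRP family channels showed no common direction: 11 of 17 tested members were below 0 and 6 above, with a median of -0.07. Trpm3 was at 224 and 345 CPM in WT and 185 and 128 in the knockout (-0.86, SE 0.44, edgeR adjusted p = 1.0), and the share of choroid plexus-marker cells was 19.2% and 33.8% against 13.8% and 12.2%. Mitochondrially encoded genes were above 0 in 13 of 13 (median 0.65), with summed levels of 49586 and 7272 CPM in WT and 35353 and 46445 in the knockout, so that WT replicate 1 lay above both knockout samples and WT replicate 2 below both. Erythroid genes were at 6622 and 7087 CPM in WT and at 30366 and 1120 in the knockout, where the replicates lay on opposite sides of WT.

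**Figure D5:**
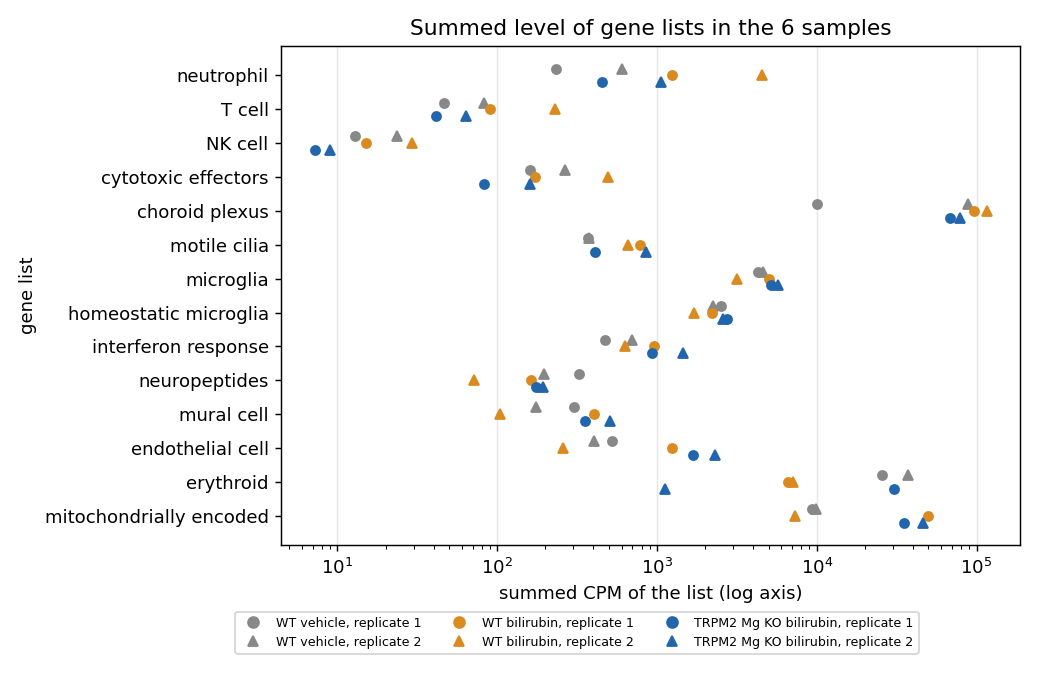
Summed level of 14 gene lists (vertical axis) in each of the 6 samples (horizontal axis, CPM on a log axis), with circles for replicate 1 and triangles for replicate 2. Neutrophil and T cell lists are lower in both knockout samples than in both WT bilirubin samples, the endothelial list is higher, and the erythroid knockout samples lie apart at 30366 and 1120 CPM.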

How the data were processed

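Single-cell 3′ RNA libraries of mouse brain cells were measured in 6 samples. The authors deposited matrices of UMI counts per gene and barcode, not normalized, with tables of barcodes and genes that hold names, an other kind of content. Per the file headers the matrices came from Cell Ranger 9.0.1, while Cell Ranger 8.0.0 and Scanpy 1.9.6 stand in the submitters' processing notes beside 2 builds, mm10 and GRCm39, with no role; the build behind the counts is therefore unclear. Free RNA was not removed. Where several gene IDs shared a symbol, the symbol stayed with the ID with more UMIs.

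Cells were filtered and summed as described in the report. Genes were tested with edgeR 4.0.16 in R 4.3.3 (quasi-likelihood test, two-sided, TMM, filterByExpr), with all 6 samples in 1 fit, group as the only term, 3 residual degrees of freedom and Benjamini-Hochberg adjustment at 0.05. An exact permutation test of 2 against 2 samples cannot go below p = 0.333. Each SE is the fold change divided by the root of its F statistic. DESeq2 1.42.0 was an alternative. Doublets stayed in the sums; in an alternative the cells with the highest Scrublet scores (scanpy 1.11.5) were left out, at an expected rate of 0.8% per 1000 cells. The script was tested on simulated data. Marker classes were read without the erythroid list, since haemoglobin UMIs were in 53.5% to 99.9% of the kept cells.

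Leading genes were the called ones with a mean of at least 5 CPM and no overlap between the groups, with the list completed to 24 genes in order of p; predicted, ribosomal, mitochondrial and haemoglobin genes were not named. Trpm2, from each list the 2 genes of lowest p, and 6 genes known from earlier results were added. Other values given, such as Jchain, Tmsb15b2 and list members in marker classes, were chosen after they were seen. The members and the 20 marker and 43 pathway lists were chosen with earlier results of these data known. 5 list genes were not in the tables.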

Additional observations from a re-analysis of the deposited data

How the results depend on the processing

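Of 30 alternatives, 20 were planned and 10 were chosen after seeing the data. Igha kept its direction in all 26 that tested it and passed in 20 (log2 -6.20 to -1.09). It did not pass without either knockout replicate, with cells thinned to 500 UMIs (-3.79), with each gene counted at most once per cell (-1.09), without immunoglobulin-rich cells (-2.45) or in microglia-marker cells (-4.04). Cebpb was lower in all 30 (-3.05 to -1.98) and passed in 5, and Tmsb15b1 was lower in all 30 (-3.15 to -1.97) and passed in 8. The number of called genes (lower, higher) was 12 (9, 3) with DESeq2, 5 (4, 1) with only the 4 bilirubin samples, and 181 (84, 97) without a filter on low counts. It was 0 with thinned cells, with each gene counted once per cell, without immunoglobulin-rich cells, and in microglia-marker cells (classes read with or without the erythroid list) or astrocyte-marker cells alone, where 373 to 681 genes had an unadjusted p under 0.05. Choroid plexus-marker cells alone gave 4 (4 lower), and endothelial-marker cells alone gave 1 (1 lower), Scgb3a1. Without the filter on low counts 9 neutrophil, 7 T cell, 2 NK cell and 3 cytotoxic list members passed, all lower. In that setting 181 of 29681 genes tested passed, 84 lower and 97 higher. Members of other lists, such as Kdr and mt-Atp8, passed there as higher. Leaving out 1 sample gave 0 to 24 called genes, 0 to 7 lower and 0 to 17 higher: 24 without WT bilirubin replicate 1, 5 and 3 without WT vehicle replicates 1 and 2, and 0 without either knockout replicate. The cause was not tested.

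Trpm2 was not called in any alternative. Its log2 fold change was 0.23 without microglia-marker cells (0.19 without the erythroid list), 0.55 in endothelial-marker cells, 0.45 in choroid plexus-marker cells and 0.44 in astrocyte-marker cells. Leaving out 1 sample gave -0.39 to 0.13.

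Samples that share a replicate number did not deviate together (r = -0.181 between the WT and knockout bilirubin groups). With 2 samples per group the deviations mirror each other, so this cannot decide whether the numbers pair samples. The labels do not say that they do. With the replicate block edgeR called 1 gene (1 lower, 0 higher), Igha at -5.57, with Trpm2 at -0.16. With the 2 knockout numbers crossed, 3 genes were called (2 lower, 1 higher).

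Depth limits the rarer genes: Igha rested on 16 and 9 UMIs in the knockout samples.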

Other observations

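H4c17, a histone H4 gene, had 0 UMIs in both WT bilirubin samples, against 59 and 29 in the knockout and 116 and 74 in WT vehicle. Col6a5, a collagen VI chain, had 172 and 78 UMIs in WT bilirubin, 19 and 3 in the knockout, and 91 and 82 in WT vehicle. Both were chosen after their values were seen, and neither passed in the edgeR fit of all 6 samples (adjusted p = 0.383 and 0.577). DESeq2, and edgeR without its filter on low counts, called both.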
